A study of Mus musculus with 96 samples.

Results

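The 10 genes described here are 4 Wnt ligands (Wnt4, Wnt7a, Wnt7b and Wnt10a), 4 Frizzled receptors (Fzd1, Fzd2, Fzd6 and Fzd7), the feedback inhibitor Axin2 and the R-spondin receptor Lgr4. They were taken by gene symbol from the 55487 genes of the count table, where each symbol matched exactly 1 gene. The table holds 96 single horizontal basal cells (HBCs), the reserve stem cells of the olfactory epithelium (OE), and all 96 form 1 group. The HBCs came from the OE of wild-type adult mice aged 6 to 8 weeks, dissected on Day 2 after methimazole, a drug that strips the OE of most of its cells, and were grown first on Tropoelastin and then on Fibronectin. Single cells divided in culture, and both daughter cells of each of 48 divisions (sister cells, with the pairing noted) were picked by mouth pipette and sequenced by G&T-seq, which captures RNA with a poly(A) tail. Every lysate received the same amount of ERCC spike-in, synthetic RNA of known sequence that serves to scale the counts.

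Wnt proteins are secreted, lipid-modified signals that bind Frizzled receptors at the cell surface. In the canonical branch, binding stops the destruction complex from degrading β-catenin, which then enters the nucleus and activates genes together with TCF and LEF factors. Axin2 is a scaffold of that complex and is itself a classical target, so it is widely read as a sign of canonical signalling. R-spondins bound to Lgr receptors keep Frizzleds at the surface by holding back the ligases Rnf43 and Znrf3, while other Wnt signals run through planar cell polarity and calcium. In epithelia with basal stem cells, Wnt signals are known to guide proliferation and fate, and in the OE canonical signalling is known to accompany regeneration.

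The labels name neither the mouse nor the dish behind a cell, so the cells were treated as 1 sample of 1 condition, and no p-value is given for any value in the text. Gene counts per cell ranged from 29454150 to 44849003 (median 36152760), and genes with a count from 11403 to 14632. The highest correlation of log2 counts between any 2 cells was 0.73, so no pair of libraries was near-identical. All 3 HBC markers (Trp63, Krt5 and Krt14) had at least 10 counts in all 96 cells, and their summed level ranged from 229 to 13363 CPM (counts scaled to the same total of gene counts in every cell, 1000000). The median summed level was 0 CPM for 9 markers of globose basal cells and neurons (highest cell 71.5), 7 of sustentacular and microvillous cells (highest 26.6) and 7 of stromal cells (highest 57.5). It was 0.0785 CPM for 3 endothelial markers (highest 32.6) and 1.66 CPM for 5 immune markers (highest 287). The immune list held 1 gene with 10 counts in many cells, the lysosomal gene Cd68 in 57 cells, and the part of such RNA in the values was not tested. Daughter 1 of pair 2 and daughter 2 of pair 4 had the fewest genes, 11403 and 11654, and some values that rest on them are given with and without their pairs.

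The 10 genes lie on 7 chromosomes of GRCm38. Wnt4 spans chr4:137277489-137299726 (plus strand, 5 exons), Wnt7a spans chr6:91363981-91411363 (minus strand, 4 exons), Wnt7b spans chr15:85535437-85582473 (minus strand, 4 exons) and Wnt10a spans chr1:74791516-74804179 (plus strand). Fzd1 at chr5:4753839-4758035, Fzd2 at chr11:102604396-102608058 and Fzd7 at chr1:59482424-59486955 each consist of 1 exon, whereas Fzd6 at chr15:39006034-39038188 has 7. Axin2 lies at chr11:108920349-108950783 and Lgr4 at chr2:109917647-110014257. Wnt7b, Fzd6 and Axin2 each overlap 1 gene on the other strand. The highest counts of these neighbours in any cell were 1020 for AU022754 (over Wnt7b), 58 for Gm26704 (over Fzd6) and 0 for Gm11670 (over Axin2). The library kit does not mark strand, so reads from such a shared stretch cannot be told apart.

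RefSeq promoters (GRCm38.p6, from 250 bases before the start to 50 after it) were at hand for 6 of the 10 genes. The promoters of Wnt4, Wnt7a and Axin2 are shown because Wnt4 was counted in all cells (100%) and Wnt7a and Axin2 in a minority (26.0% and 19.8%). They are printed 5′ to 3′ along the gene, with CG dinucleotides in capitals: Wnt4 at chr4:137277385-137277684 (plus strand), Wnt7a at chr6:91411304-91411603 (minus strand) and Axin2 at chr11:108920099-108920398 (plus strand).
Wnt4: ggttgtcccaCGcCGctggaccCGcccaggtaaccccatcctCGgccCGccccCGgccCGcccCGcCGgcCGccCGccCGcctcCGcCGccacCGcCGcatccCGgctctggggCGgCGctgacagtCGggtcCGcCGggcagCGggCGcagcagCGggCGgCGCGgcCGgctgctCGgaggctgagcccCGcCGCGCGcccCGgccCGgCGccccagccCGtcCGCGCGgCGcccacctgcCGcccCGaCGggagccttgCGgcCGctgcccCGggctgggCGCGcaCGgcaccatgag
Wnt7a: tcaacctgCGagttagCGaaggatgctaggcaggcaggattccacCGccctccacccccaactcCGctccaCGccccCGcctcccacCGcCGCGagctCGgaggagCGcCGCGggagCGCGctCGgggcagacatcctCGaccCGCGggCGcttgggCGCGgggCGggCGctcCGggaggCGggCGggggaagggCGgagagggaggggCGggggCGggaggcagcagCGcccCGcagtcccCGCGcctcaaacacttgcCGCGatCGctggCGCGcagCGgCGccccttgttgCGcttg
Axin2: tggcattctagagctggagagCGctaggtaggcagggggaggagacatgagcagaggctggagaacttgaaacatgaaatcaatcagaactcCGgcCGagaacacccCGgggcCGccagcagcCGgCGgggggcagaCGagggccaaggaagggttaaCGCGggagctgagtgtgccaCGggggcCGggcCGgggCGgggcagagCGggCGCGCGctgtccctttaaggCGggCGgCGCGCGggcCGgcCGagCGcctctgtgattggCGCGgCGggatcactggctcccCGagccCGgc

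All 3 were dense in CG. Wnt4 had 51 CG dinucleotides, Wnt7a 42 and Axin2 31, against a median of 7 over 32851 RefSeq promoters. The share of all promoters with fewer was 99.3% for Wnt4, 97.0% for Wnt7a and 89.4% for Axin2. The other promoters held 24 (Fzd7), 18 (Lgr4) and 16 (Fzd1). CG density did not order the genes by their share of cells, since Lgr4, with fewer CG dinucleotides than Wnt7a, was counted in 96.9% of cells. The core of the TCF and LEF site, CTTTGA on either strand, was found in 16.0% of all promoters and in 1 of the 6, that of Fzd1. The Fzd1 promoter (chr5:4758167-4758466, minus strand) is printed with the match in capitals. The match lies on the opposite strand, and begins at base -242 from the start.
Fzd1: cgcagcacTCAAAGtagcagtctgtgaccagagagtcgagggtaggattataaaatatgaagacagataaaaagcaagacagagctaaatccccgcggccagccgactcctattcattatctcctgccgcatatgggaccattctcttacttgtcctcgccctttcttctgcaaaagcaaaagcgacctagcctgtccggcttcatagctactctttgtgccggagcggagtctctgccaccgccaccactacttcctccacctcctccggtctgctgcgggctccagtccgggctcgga

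**Figure D1:**
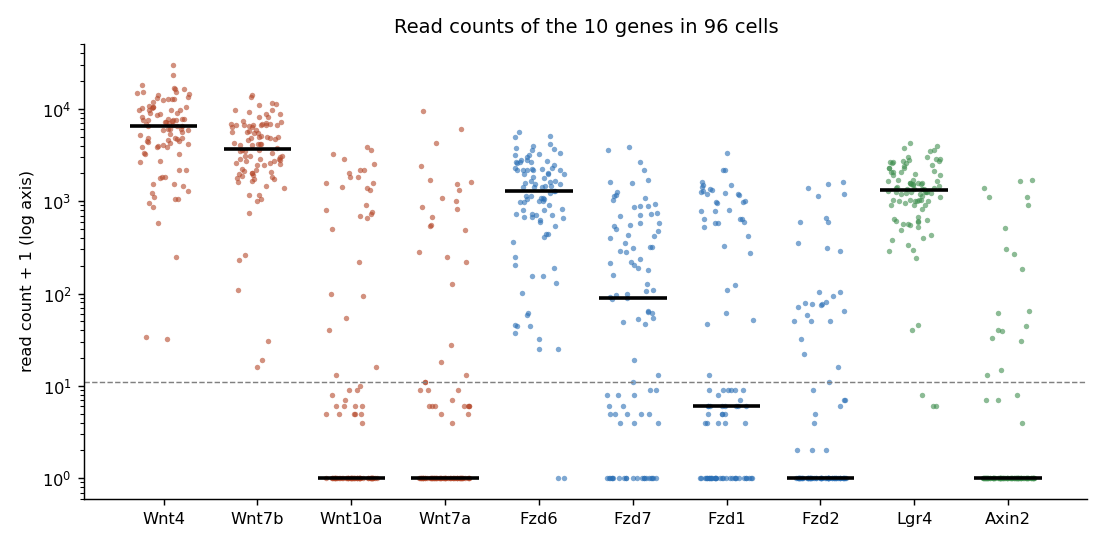
Read count plus 1 (log axis) of the 10 genes in 96 cells. Each point is 1 cell, black bars are medians, and the dashed line marks 10 counts. Wnt4, Wnt7b, Fzd6 and Lgr4 have medians above 1000 with a tail of low cells, which for Fzd6 reaches 0. The other genes have many cells at 0 as well as single cells with over 1000 counts.

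Wnt4 and Wnt7b were the ligands of every cell. Wnt4, a ligand best known for organ development and often linked to β-catenin-independent signalling, ranged from 31 to 30097 counts with a median of 6450. Wnt7b, an epithelial ligand that acts in lung and skin, ranged from 15 to 14007 with a median of 3672.5. Both thus had at least 10 counts in 96 of 96 cells (95% interval of the share 96.2% to 100%). The low tail was short. Wnt4 fell under 100 counts in daughter 2 of pair 4 (33 counts) and in 1 daughter of another pair (31 counts), and Wnt7b had 15 counts in daughter 1 of pair 2, 18 in daughter 1 of pair 19 and 30 in daughter 1 of pair 21. On the scale of TPM, which corrects for transcript length, Wnt4 had a mean of 79.7 ± 61.1 (SD, n = 96 cells) and Wnt7b of 61.5 ± 41.2.

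Wnt10a and Wnt7a were counted in a minority of cells, and there at high levels. Wnt10a, known for its part in tooth, hair and skin, had at least 10 counts in 29 cells (30.2%, interval 21.2% to 40.4%). Its median was 0 over all cells and 1320 counts in those 29, with a highest value of 3889. Wnt7a, a close relative of Wnt7b, had at least 10 counts in 25 cells (26.0%, interval 17.6% to 36.0%), where its median was 676 counts and its highest value 9502. A further 15 cells held 1 to 9 counts of Wnt10a and 14 cells 1 to 9 of Wnt7a. Both ligands were counted in the same cell 12 times, Wnt7a alone in 13 cells, Wnt10a alone in 17 and neither in 54.

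The ligand output of a cell was mostly Wnt4 and Wnt7b. Over all 19 Wnt genes, summed TPM per cell ranged from 1.97 to 595 with a median of 156, of which Wnt4 and Wnt7b together made up a median of 87.7% (26.9% to 100%). The highest ligand was Wnt4 in 53 cells, Wnt7b in 40 and Wnt10a in 1. Wnt4 exceeded Wnt7b in 54 cells and fell below it in 42, so that their order changed from cell to cell. A difference between their mean levels was not tested. At its highest, Wnt7a reached 33.8% of the ligand TPM of a cell and Wnt10a 47.7%.

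Fzd6 was the receptor of nearly all cells. Fzd6, a receptor known for planar cell polarity in skin and hair, ranged from 0 to 5618 counts with a median of 1279.5 and had at least 10 counts in 94 cells (97.9%, interval 92.7% to 99.7%). The 2 cells at 0 were daughter 1 of pair 2 and daughter 2 of pair 4, the cells with the fewest genes. Fzd7, often tied to stem cells of epithelia, had a median of 89.5 counts, a highest value of 3818 and at least 10 counts in 60 cells (62.5%, interval 52.03% to 72.2%). Fzd1 reached 10 counts in 38 cells (39.6%, interval 29.7% to 50.1%), with a median of 872.5 counts in those cells and a highest value of 3338. Fzd2 reached it in 29 cells (30.2%, interval 21.2% to 40.4%), with a median of only 79 counts there and a highest value of 1632. Fzd1 and Fzd2 were counted together in 16 cells, Fzd1 alone in 22 and Fzd2 alone in 13.

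In TPM, Fzd6 averaged 17.1 ± 14.1, Fzd1 4.07 ± 6.85, Fzd7 3.98 ± 6.86 and Fzd2 1.40 ± 4.05 (SD, n = 96 cells). Fzd6 made up a median of 43.4% of the TPM of all 10 Frizzleds in a cell and was the highest of them in 60 cells, against 11 cells for Fzd1, 9 for Fzd7 and 1 for Fzd2. Between Fzd1 and Fzd7, Fzd1 was higher in 40 cells and Fzd7 in 52, and a difference between their mean levels was not tested.

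Lgr4 was nearly universal and Axin2 was rare. Lgr4 ranged from 5 to 4233 counts with a median of 1317 and had at least 10 counts in 93 cells (96.9%, interval 91.1% to 99.4%). Its mean of 13.5 ± 8.27 TPM lay within the spread of Fzd6, which was higher in 49 cells and lower in 47. Axin2 was listed at 0 in 73 cells and had at least 10 counts in 19 (19.8%, interval 12.4% to 29.2%), with a median of 183 counts in those cells and a highest value of 1713. Its mean was 1.10 ± 3.69 TPM, the lowest of the 10.

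Of the 10 genes, 5 had at least 10 counts in at least 50% of the cells (Wnt4, Wnt7b, Fzd6, Lgr4 and Fzd7). Over the 14463 genes tested, which had at least 10 counts in at least 10% of cells, the share was 71.7%. A cell held between 4 and 9 of the 10 genes at 10 counts, most often 6 (37 cells). That number rose and fell with the number of genes counted in the cell (Spearman rho 0.38 over 96 cells). The part of gene detection or of sequencing depth in the levels was not tested. A read missing in a single cell can reflect lost RNA as well as a silent gene, and these cannot be told apart here.

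**Figure D2:**
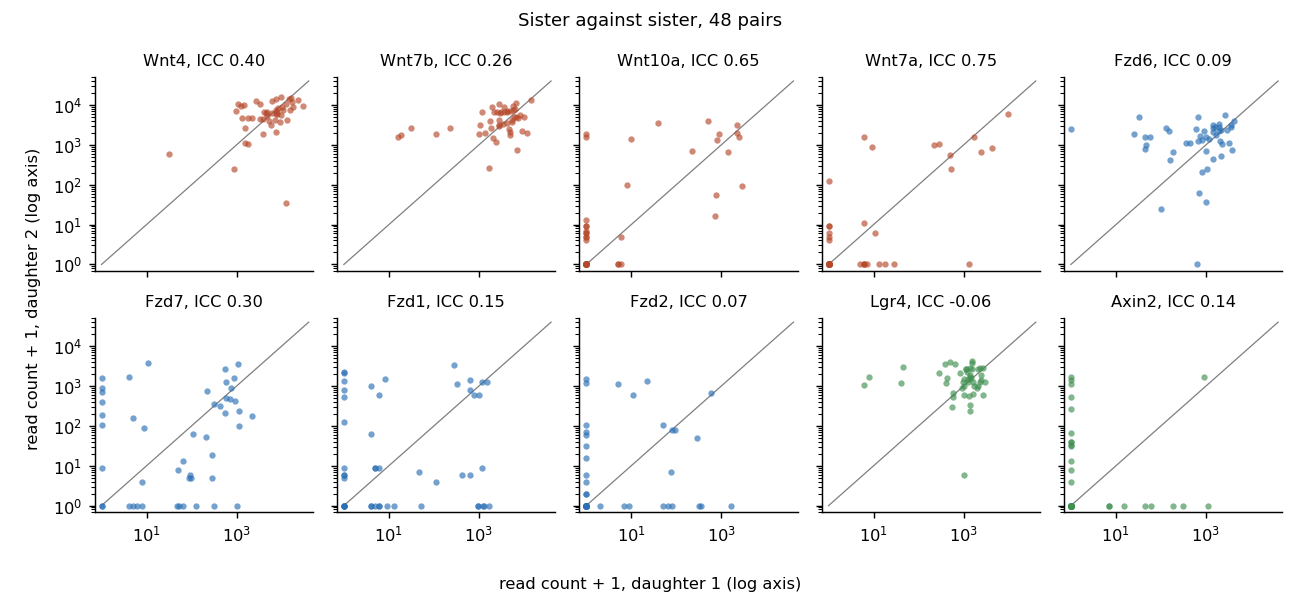
Read count plus 1 of daughter 2 against daughter 1 (log axes) for each gene, 1 point per pair, with the line of equality and the intraclass correlation (ICC) over 48 pairs. Wnt7a and Wnt10a have counts in both daughters of many pairs in which they appear, while Axin2 lies along the axes except for 1 pair.

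The paired design asks how alike the products of 1 division are. Likeness was measured by the ICC on log2(CPM + 1), which is near 1 where sisters match and pairs differ, and near 0 where sisters are no more alike than cells of different pairs. Wnt7a and Wnt10a had the highest values, 0.75 and 0.65, and were the 2 genes of the 10 at or above 0.5. Among all genes tested, 4.4% reached 0.5. Among the 2714 genes counted in 15% to 45% of cells, as Wnt7a and Wnt10a were, 2.28% did, and 99.96% of them had a lower ICC than Wnt7a and 99.5% than Wnt10a. The median over the 10 genes was 0.21, against 0.11 over all genes tested.

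Wnt7a was counted in 17 pairs, in both sisters of 8 and in 1 sister of 9. Pair 46 stood highest with 9502 and 6053 counts, followed by pair 16 with 4235 and 821 and pair 24 with 2376 and 676. Pair 44 had 1695 and 1553, pair 10 had 485 and 547, pair 17 had 281 and 1076, pair 27 had 221 and 1013, and pair 40 had 533 and 249. In all 8 pairs each sister held at least 221 counts. In 5 of the 9 one-sided pairs, in contrast, the counted sister had under 100 counts, and in 4 pairs it had 126 to 1596. The one-sided pairs with most reads were pair 8 (5 and 1596), pair 34 (1309 and 0) and pair 47 (8 and 861). Without pair 46 the ICC of Wnt7a was 0.68.

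Wnt10a was likewise counted in 17 pairs, in both sisters of 12 and in 1 sister of 5. Pair 15 had 2179 and 3228 counts, pair 44 had 2519 and 1574, pair 27 had 2179 and 2025, and pair 40 had 1382 and 659. Other pairs were uneven, as pair 10 with 39 and 3605 and pair 9 with 2863 and 94. The share of pairs with both sisters among those with either was 70.6% (interval 44.0% to 89.7%) for Wnt10a and 47.1% (23.0% to 72.2%) for Wnt7a, against a median of 20.8% over the 2714 genes of that class. Of all 48 pairs, 9 held both ligands in at least 1 sister, 8 Wnt7a alone, 8 Wnt10a alone and 23 neither. The pairs with Wnt7a fell into 11 of the 12 sets of 8 cells that the deposited names form, and those with Wnt10a into 11. The spread over sets was uneven. Wnt7a was counted in 0 to 4 cells of a set and in at most 3 of its 4 pairs. Wnt10a was counted in 0 to 7 cells of a set, and in 1 set or more in all 4 pairs. Whether a set was handled together is not stated.

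Wnt4 and Wnt7b were present in both sisters of all 48 pairs, and their levels differed by a median of 1.69-fold and 1.73-fold after scaling to the spike-in. The ICC was 0.40 for Wnt4 and 0.26 for Wnt7b. Among the 6224 genes counted in at least 90% of cells, 7.46% reached 0.5, the median was 0.17, and 85.4% had a lower ICC than Wnt4. The value for Wnt4 depends on pair 4, where daughter 1 had 12412 counts and daughter 2 had 33. Without pair 4 it was 0.55, past 0.5, and likewise without pairs 2 and 4. For Wnt7b the widest pair was pair 19, with 18 and 1762 counts.

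Among the receptors, the ICC was 0.30 for Fzd7, 0.15 for Fzd1, 0.09 for Fzd6 and 0.07 for Fzd2. Without pairs 2 and 4, which hold both cells at 0 for Fzd6, the ICC of Fzd6 was 0.13. Fzd1 was counted in both sisters of 8 pairs and in 1 sister of 22, and in 18 of those 22 the counted sister had at least 100 counts. In pair 47, for instance, Fzd1 had 1633 counts in daughter 1 and 0 in daughter 2, and in pair 14 it had 0 and 2202. Where both sisters had Fzd1, in contrast, they differed by a median of 1.31-fold, as in pair 34 with 1196 and 1248 counts and pair 18 with 1490 and 1283. Fzd7 was counted in both sisters of 20 pairs and in 1 sister of 20, and Fzd2 in both of 7 and in 1 of 15. Fzd6 was counted in both sisters of 46 pairs, at a median difference of 2.48-fold over all 48.

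Axin2 was almost entirely one-sided. It was counted in 18 pairs, and in 17 of them the other sister was listed at 0. The exception was pair 7, with 914 and 1670 counts. In 8 of the 17 one-sided pairs the counted sister had at least 100 counts, and in 4 at least 1000 (pairs 4, 14, 24 and 35, with up to 1713). The share of pairs with both sisters was 5.56% (interval 0.141% to 27.3%), and its ICC was 0.14. That value had no stable sign: it was -0.12 without set 2, which holds pair 7, -0.14 on ranks and -0.02 on spike-in-scaled counts. Without pairs 2 and 4 it was 0.18. Among the 2714 genes counted in 15% to 45% of cells, 6.08% had a lower share with both sisters. Axin2, at 19.8% of cells, lies near the low end of that class, and the part of detection in its place was not tested. Lgr4 was counted in both sisters of 45 pairs at a median difference of 1.96-fold, and its ICC of -0.06 was the lowest of the 10. In pair 7, the pair with Axin2 in both sisters, Lgr4 had 7 counts in daughter 1 and 1700 in daughter 2.

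Spike-in transcripts of like level were set beside the genes, because every sister library received the same amount of them. Of the ERCC transcripts with a mean TPM within 2-fold of the gene, the share of pairs with both sisters had a median of 23.0% (5.88% to 63.8%, 10 transcripts) at the level of Wnt10a and of 14.3% (0% to 63.8%, 9 transcripts) at that of Wnt7a. The value of Wnt10a lay above that range and that of Wnt7a within it. For Fzd1, at 26.7%, the median of its 16 transcripts was 2.94% (0% to 63.8%), and for Axin2, at 5.56%, that of 14 transcripts was 0% (0% to 25.0%). One-sided counts of Axin2 and Fzd1 were within what these transcripts showed. A gene counted in few cells reaches a higher level there than its mean, so transcripts matched on the mean lie below the gene in the cells that held it (medians of 21.9 TPM for Wnt10a, 10.4 for Wnt7a, 9.68 for Fzd1 and 2.01 for Axin2, against means of 7.62, 5.55, 4.07 and 1.10), and these ranges give no firm comparison for those 4 genes. Lgr4, at 93.8%, and Fzd6, at 95.8%, lay above the highest of their transcripts, 56.8% and 85.4%. Those transcripts reached 10 counts in 25 to 69 cells for Lgr4 and in 25 to 89 for Fzd6, against 93 and 94 cells for the genes. Spike-ins of like mean TPM were thus counted less often than Lgr4 and Fzd6, and no firm comparison is given for these genes either.

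With the cutoff of 1.5-fold that the study uses, the share of pairs called different ranged from 60.4% for Wnt4 (interval 45.3% to 74.2%) to 100% for Axin2 (81.5% to 100%), with a median of 80.8% over the 10 genes. All 10 genes passed the cutoff in at least 50% of their pairs. Among all genes tested, 90.7% did, and among genes counted in at least 90% of cells 78.7%, so that the count says nothing particular about these genes. Over the 8 pairs with 10 counts in both sisters, Fzd1 passed it in 37.5%. Spike-in transcripts at the level of Wnt4 passed it in a median of 72.04% of pairs (20.8% to 85%), and those at the level of Axin2 in a median of 100%. For Fzd1, Fzd2, Fzd7, Wnt7a, Wnt10a and Axin2 the highest spike-in transcript stood at 100%, so no share could exceed it and no comparison is made. The shares of Wnt4 (60.4%) and Wnt7b (66.7%) lay below their highest transcript (85% for both). So did those of Fzd6 (79.2%) and Lgr4 (64.6%), where it stood at 96.7% for both. The share of Lgr4 also lay below its lowest transcript (82.5%, median 90.24%). That of Fzd6 lay below the median of its transcripts (89.99%) and above their lowest (66.7%). Spike-ins at the level of Lgr4 thus passed the cutoff more often than Lgr4 did. Being counted less often than Lgr4 and Fzd6, they give no firm comparison for these 2 genes here either.

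**Figure D3:**
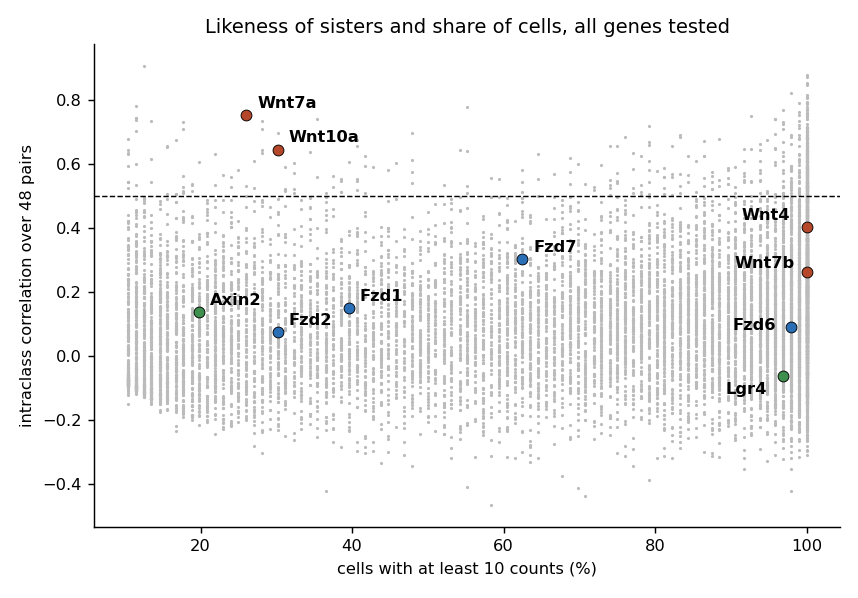
ICC over 48 pairs against the percentage of cells with at least 10 counts, for all 14463 genes tested (grey) and the 10 genes (coloured). The dashed line marks an ICC of 0.5, above which lie Wnt7a (0.75) and Wnt10a (0.65).

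Across the 96 cells the 10 genes did not move together as a set. Over the 45 combinations, Spearman's rho on CPM ranged from -0.20 to 0.26 with a median of 0.02, the highest being that of Fzd1 with Fzd2. Single combinations went further in other settings. Over 48 sister differences rho was -0.42 for Fzd1 with Fzd7 and 0.44 for Wnt7a with Wnt7b. On spike-in-scaled counts it was 0.36 over cells for Wnt4 with Wnt7b. All members were near 0 with the mean z-score of 12 cell cycle genes (rho -0.08 to 0.13), except Axin2 at -0.23. Correlations across cells here describe 96 cells that share pairs, sets and sequencing depth, and in sparse genes they follow mostly which cells are at 0.

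Wnt4 followed the basal keratins. Its rho with Krt14, a keratin of basal cells, was 0.48 over cells, 0.53 over 48 pair means and 0.42 over 48 sister differences. Pearson's r was 0.73 over cells and 0.57 without the 2 cells farthest from the median of Krt14, where rho was 0.45. With the means of the 12 sets removed rho was 0.55, and without pairs 2 and 4 it was 0.48. With the mean z-score of 4 wound keratins (Krt6a, Krt6b, Krt16 and Krt17) its rho was 0.36 over cells, 0.45 over pair means and 0.08 over sister differences, and with 10 squamous genes it was 0.29 over cells. Its rho with Krt5, the partner of Krt14, was 0.39 over cells and 0.28 over sister differences. The 3 genes most like Wnt4 among 10374 were Anxa2, a membrane-binding protein (0.56), Krt19, a simple-epithelial keratin (0.52), and Col17a1, a collagen of the hemidesmosome (0.50). Over sister differences the values were 0.06 for Anxa2, 0.43 for Krt19 and 0.26 for Col17a1, so that Anxa2 went with Wnt4 between pairs and hardly within them.

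Wnt7a went with squamous genes between pairs. Its rho with the mean z-score of 10 genes of squamous differentiation, such as the cornified envelope gene Sprr3 and the keratin Krt13, was 0.38 over cells and 0.45 over pair means, and -0.07 over sister differences, of which most lie near 0 because neither sister held Wnt7a. Over the 17 pairs with Wnt7a it was 0.49 for pair means and -0.24 for sister differences, too few for a direction to be read. Without the 2 cells farthest from the median of that score rho was 0.36. The amount of gene counts per spike-in also moved with Wnt7a (rho 0.37 over cells), and its part was not tested. Wnt7b, like Wnt4, had a rho of 0.36 with the wound keratins over cells, with 0.29 over pair means and 0.16 over sister differences. The total of gene counts moved with Wnt7b as much (rho 0.35), and its part was not tested. The genes most like Wnt7b were Far1, which makes fatty alcohols (0.42), Tbc1d17 (0.42) and Msln, a surface protein of mesothelium (0.39). Over pair means the values were 0.51, 0.49 and 0.41, and over sister differences 0.23, 0.26 and 0.23.

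The genes most like Lgr4 were Gclc, a subunit of the enzyme that starts glutathione synthesis (0.46), the quinone reductase Nqo1 (0.45) and the glutathione transferase Gstm1 (0.45). Over pair means the values were 0.59, 0.52 and 0.62, and over sister differences 0.27, 0.15 and 0.03. With the means of the 12 sets removed they were 0.47, 0.38 and 0.34. For Fzd7 they were the ribosomal genes Rpl36al (0.43) and Rpl36a-ps3 (0.40), related sequences between which reads may be split, and Erich1 (0.39). Over pair means the values were 0.44, 0.41 and 0.33, and over sister differences 0.29, 0.28 and 0.40. With set means removed, the 2 ribosomal genes fell to 0.27 and 0.25, and Erich1 was at 0.41. The genes most like Fzd6 were Ubqln1, a shuttle to the proteasome (0.38), Pgd of the pentose phosphate pathway (0.37) and the deubiquitinase Usp20 (0.37). Over pair means the values were 0.47, 0.46 and 0.36, and over sister differences 0.32, 0.27 and 0.22. With set means removed they were 0.35, 0.26 and 0.28. All these lists hold the highest of 10374 genes ranked on the same 96 cells. The highest of so many values lies above 0 even among unrelated genes, and how far above was not tested.

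**Figure D4:**
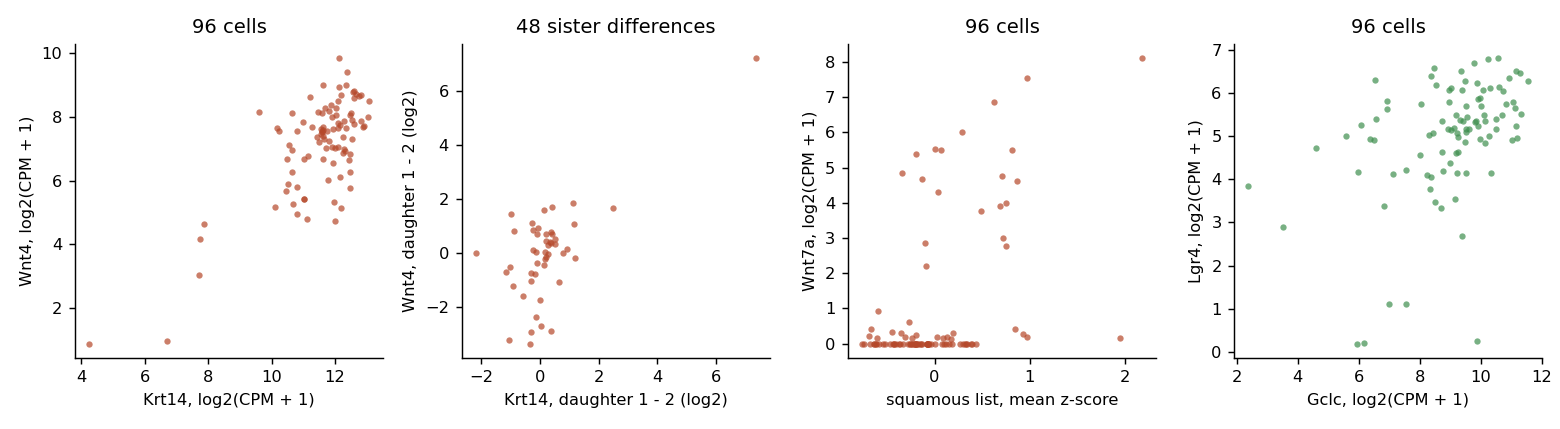
Wnt4 against Krt14 in 96 cells and as differences between daughter 1 and daughter 2 in 48 pairs, Wnt7a against the mean z-score of 10 squamous genes, and Lgr4 against Gclc, all on the scale of log2(CPM + 1). Spearman's rho is 0.48, 0.42, 0.38 and 0.46 from left to right, and a few cells low in Krt14 are low in Wnt4 as well.

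The rest of the pathway was read from lists of other genes. Of 15 other Wnt ligands, 2 had at least 10 counts in at least 50% of cells, Wnt5a in 66 cells (mean 5.48 TPM) and Wnt9a in 58 (7.41 TPM). Another 7 had no count in any cell, among them Wnt1 and Wnt2, which allows a share of cells with a count of up to 3.12% (3 of 96 cells, where the exact interval reaches 3.77%). Of 6 other Frizzleds, Fzd5 was counted in 58 cells and Fzd3 in 49, and Fzd9 in 4. Of 6 co-receptors and other Wnt receptors, 5 were counted in at least 50% of cells, with Ptk7, a polarity receptor, at 47.9 TPM, and Ryk at 31.3 TPM. The cargo receptor Wls, which carries Wnts to the surface, was at 104 TPM in all 96 cells, and Porcn, which adds their lipid, was counted in 82.

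The R-spondin branch had its receptor and ligases but no ligand at 10 counts. Lgr4 was counted in 93 cells, Znrf3 in 91 and Rnf43 in 65, whereas none of Rspo1, Rspo2, Rspo3 and Rspo4 reached 10 counts in any cell, Lgr6 had no count and Lgr5 was counted in 5 cells. Of 12 secreted inhibitors, Sfrp1, a decoy for Wnts, was counted in all 96 cells at 58.04 TPM and Dkk3 in 71, while 4 had no count, Dkk1 among them. Sostdc1, an inhibitor named here after its values were seen, was counted in 12 cells with an ICC of 0.91, and its 8 pairs comprised 4 with both sisters and 4 with 1.

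**Figure D5:**
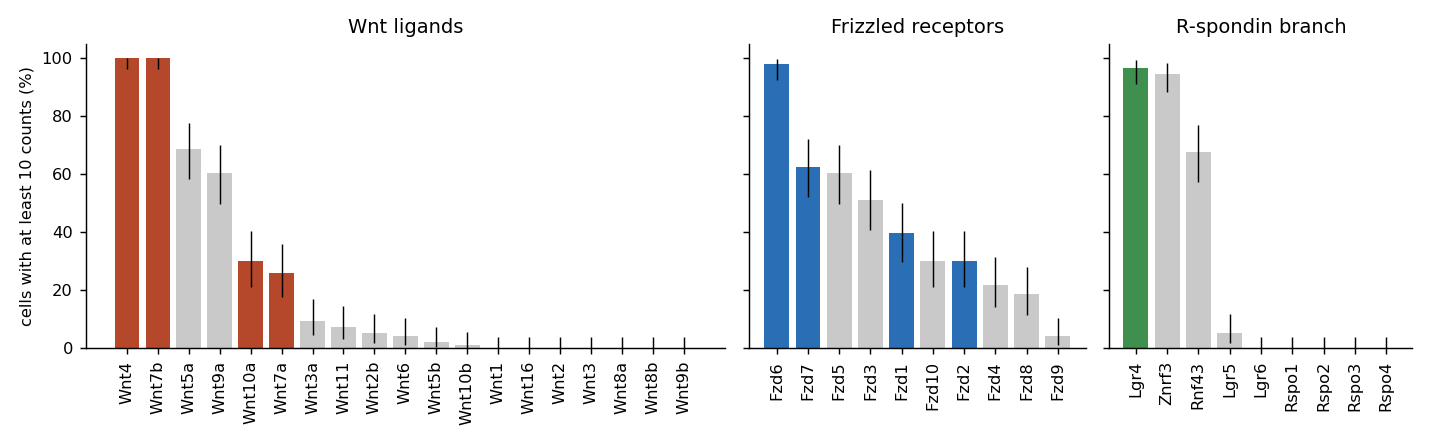
Percentage of 96 cells with at least 10 counts of each Wnt ligand, Frizzled receptor and gene of the R-spondin branch, with exact 95% intervals. Coloured bars are genes among the 10. Wnt4 and Wnt7b (100%), Fzd6 (97.9%), Lgr4 (96.9%) and Znrf3 were counted in nearly all cells, and 7 Wnt genes and Rspo1 to Rspo4 in none.

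Downstream, 10 of 11 genes of the relay and destruction complex were counted in at least 50% of cells, with the kinase Csnk1a1 at 225 TPM, β-catenin (Ctnnb1) at 152 TPM and Gsk3b at 40.3 TPM. Of 9 nuclear effectors 8 were, Pygo2 in 94 cells and Tcf7l2 in 90, but Lef1 had no cell with 10 counts. The 9 feedback and target genes other than Axin2 ranged from all cells to none. Ccnd1 (654 TPM), Cd44 (132 TPM) and Myc (131 TPM), which many signals control, were counted in all 96 cells. Nkd1 and Sp5, which like Axin2 are read as more specific targets, had no cell with 10 counts. Between them lay Sox9 in 68 cells, Nkd2 in 22, Tnfrsf19 in 12 and Apcdd1 in 5, of which Nkd2 reached 6493 counts. These 4 fall outside the rule for named genes and were chosen after their values were seen. The ligases Rnf43 and Znrf3, counted in 65 and 91 cells, stand in the R-spondin list and not in this one. Whether canonical signalling was active in these cells was not tested. Of 7 planar cell polarity genes, 4 were counted in at least 50% of cells, with Vangl1 at 28.2 TPM in all 96.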

How the data were processed

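The 96 cells were mapped to their pair by the library names of the labels. The submitters' processing notes name Trimmomatic 0.39, STAR 2.7.11a, StringTie 2.2.1 and GRCm38, and the study's methods give an Ensembl annotation, oligo-dT capture, amplification by PCR and Nextera XT libraries, with no molecular identifiers named. The deposited table holds integer counts per gene without normalization, and the authors' files per cell hold TPM, whose scaling includes the 92 ERCC transcripts. FPKM and coverage were not used. Amplified reads are not independent molecules, so intervals (Clopper-Pearson, 95%) cover counting error only.

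Counts were read with Python 3.11.15, numpy 2.4.6, scipy 1.17.1 and pandas 2.3.3, and plots drawn with matplotlib 3.10.9. CPM used gene counts only. Sister folds used size factors from the median of ratios over 22 ERCC transcripts counted in all cells, counts under 3 raised to 3, and pairs with at least 10 counts in 1 sister. The ICC was one-way over 48 pairs on log2(CPM + 1). The functions were tested on simulated data. Positions came from the deposited files and exons from GENCODE M21.

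The members and the other lists were chosen with earlier results of these data known. All 10 members are named. Of other lists, up to 3 genes by mean TPM among those counted in at least 50% of cells and up to 2 of lowest detection are named. Genes most like a member are the 3 of highest rho among genes counted in at least 50% of cells, for the 5 members so counted. With 1 group and no named mouse or culture, no test was run.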

Additional observations from a re-analysis of the deposited data

How the results depend on the processing

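The number of members with 10 counts in at least 50% of cells was 5, and 6 with a minimum of 1 count, 4 with a minimum of 100 counts and 4 with a TPM of at least 1. It was 5 whichever set of 8 cells was left out. The median share of pairs past the fold cutoff was 80.8%, 72.4% at 2-fold and 50% at 4-fold. It lay between 79.3% and 81.5% when sets were left out, was 64.6% over pairs with 10 counts in both sisters, and lay between 80.8% and 86.5% under the other 3 scalings, TPM and a pseudocount of 1. The 2 members with an ICC of at least 0.5 were 2 under each of the 5 other scales, and 3 without set 1 or, chosen after seeing the data, without pair 4 or without pairs 2 and 4, where Wnt4 passed 0.5 (0.55 in each case). The median ICC was 0.207, between 0.164 and 0.236 when sets were left out, and 0.103 with the means of the 12 sets removed. That step takes variance between pairs out of each set of 4 pairs, and moved the median of all genes tested from 0.11 to -0.04. Wnt7a then had 0.72, Wnt10a 0.60, Wnt4 0.31, Wnt7b 0.18, Fzd7 0.15 and Fzd1 0.06. Fzd2, Fzd6, Axin2 and Lgr4 had negative values. On ranks Wnt7a had 0.56. Without the filter on low counts, 3.85% of 18036 genes reached an ICC of 0.5.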
